A study of Mus musculus with 9 samples.

Results

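The genes described here are 10 genes of fatty acid and glycerol handling in endothelial cells (ECs): Lpl, Cd36, Slc27a3, Slc27a4, Fabp4, Fabp5, Aqp7, Pparg, Tcf15 and Meox2. They were taken by gene name from a table of read counts for 46078 genes, and all 10 were found in it and passed the filter on low counts. The genes were chosen by names put together with their measured read counts in the Sca-1+ and Sca-1- cell fractions already known, so their differences between these fractions are given as descriptions with no test.

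Bone marrow (BM) ECs, sorted as CD45-Ter119-CD31+ cells from wild type B6 mice and split by the surface protein Sca-1, were profiled by RNA-seq. There were 4 Sca-1+ libraries, with labels ending in 7, 13, 15 and 19, and 5 Sca-1- libraries, with labels ending in 8, 10, 14, 16 and 22. The labels do not state that the libraries came from separate mice, and prefixes that 15 shares with 16, and 13 with 14 and 22, are not explained there, so p-values measure the spread between these libraries, which may in part be technical. Both fractions carry the wild type label with no treatment named, and the age of the mice is not given in the sources used here.

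Capillary endothelium takes fatty acids from the blood for the tissue beneath it. Lipoprotein lipase, encoded by Lpl and anchored on the vessel wall by the Gpihbp1 protein, releases fatty acids from triglyceride-rich lipoproteins. CD36 and the fatty acid transport proteins of the Slc27a family bring them into the cell, the fatty acid binding proteins of the Fabp family carry them in the cytosol, and AQP7 is a channel for water and glycerol, the other product of lipolysis. PPARγ, encoded by Pparg, is a nuclear receptor that binds fatty acids and works as a partner of the retinoid X receptors. MEOX2, a homeodomain protein, and TCF15, a basic helix-loop-helix protein, are known as a pair that turns on Cd36, Lpl and Fabp genes in heart capillaries.

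Total counts per library lay between 21581653 and 25959818, and 3 counts, the floor used here, stood for 0.0996 to 0.209 CPM (counts scaled to library size, with edgeR's TMM factors). The libraries carry no molecular identifiers, so floors cover counting error only. Ly6a, which encodes Sca-1, was at 874 to 1306 CPM in the Sca-1+ libraries and at 0.240 to 1.49 CPM in the Sca-1- libraries. The endothelial label held less well in the Sca-1- fraction. Cdh5, which encodes VE-cadherin, was at 235 to 297 CPM in Sca-1+ and at 2.44 to 13.1 CPM in Sca-1- libraries, and 21 of 25 general endothelial genes were higher in Sca-1+ with 0 lower. Pecam1, which encodes the CD31 used in the sort, and Esam, the highest endothelial genes of the fractions, were at 1399 and 836 CPM and at 1202 and 1031 CPM, and neither was called. The 16 genes of megakaryocytes and platelets, with Pf4 and Ppbp the highest, summed to 27220 to 118169 CPM in Sca-1- and to 48.4 to 94.5 CPM in Sca-1+ libraries. In such bulk samples fewer cells of a type and less RNA per cell cannot be told apart. Each difference is therefore given on 2 scales, after TMM and relative to the 25 general endothelial genes of the same library (log2 CPM of the gene minus their mean log2 CPM), called the endothelial scale here. For genes other than the 10, values and calls on that scale come from a fit with the libraries scaled to these 25 genes. Among the 25, Pecam1, Esam, Myct1 and Tspan18 were not called, with log2 fold changes of 0.74, 0.22, -0.85 and 0.65. In Sca-1- libraries Pecam1 was highest in 10 (1701 CPM) and lowest in 16 (334 CPM), as were the summed megakaryocyte and platelet genes. The part of Pecam1, Esam, Myct1 and Tspan18 in values on the endothelial scale was not tested.

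After TMM scaling, 9 of the 10 genes were called higher in Sca-1+ ECs at an adjusted p of 0.05 in the fit across all genes, where 23.3% of the 15937 genes tested were called higher and 21.4% lower. In the same 9 genes every Sca-1+ library was above every Sca-1- library, a pattern shown by 24.8% of all genes tested in this direction and by 18.8% in the other. Since this contrast was used in choosing the genes, nothing is read from these counts. Slc27a4 was the gene that overlapped between the fractions, and it was called in neither direction. On the endothelial scale, the list split. Aqp7, Cd36, Slc27a3, Tcf15 and Fabp4 stayed higher in every Sca-1+ library, Meox2, Pparg and Lpl overlapped, and Fabp5 and Slc27a4 were higher in every Sca-1- library. Of all genes tested, 0.816% were higher in every Sca-1+ library on this scale and 82.9% in every Sca-1- library, and nothing is read from these counts either.

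**Figure D1:**
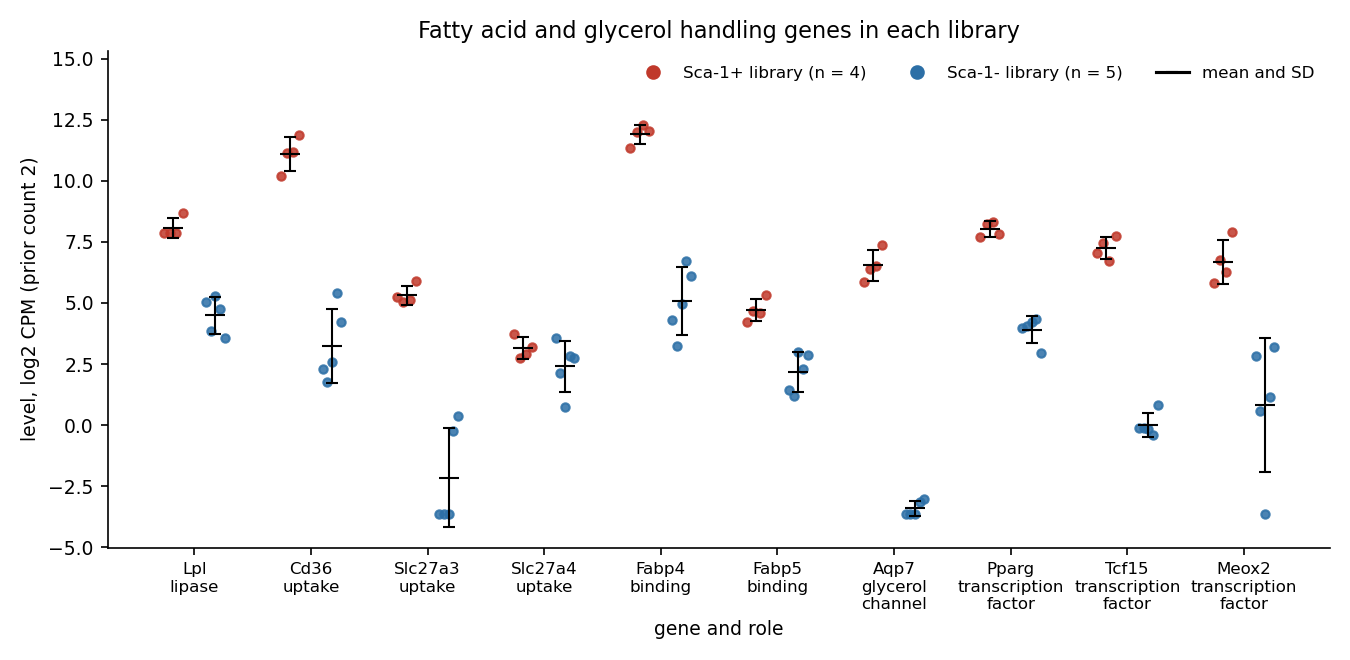
Level of each gene as log2 CPM with a prior count of 2, in 4 Sca-1+ and 5 Sca-1- libraries; points are libraries and bars are the mean and SD. The fractions are apart for 9 genes and overlap for Slc27a4, and Aqp7 lies at the floor in all 5 Sca-1- libraries; on the endothelial scale Fabp5, Lpl, Pparg and Slc27a4 have the lower mean in Sca-1+.

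Promoter sequences of RefSeq on GRCm38.p6 were at hand for 6 of the 10 genes (Aqp7, Cd36, Meox2, Pparg, Slc27a3 and Slc27a4), with 9 start sites in all. The 250 bases before each start were searched on both strands for the E-box CANNTG, bound by basic helix-loop-helix proteins such as TCF15, the homeodomain core TAATTA and the PPAR half-site AGGTCA. A match is only a match of letters, and no match overlapped another in the windows shown. An E-box was found before 8 of the 9 starts, and 66.22% of 32851 RefSeq promoter windows of the same length hold one. The core TAATTA was found in none of the 9 (4.84% of all windows). The half-site AGGTCA was found before 5 of the 9 starts, in Aqp7, Cd36 and Pparg (14.02% of all windows), and in neither Slc27a gene nor Meox2. The windows of the 2 Aqp7 starts overlap and share 1 E-box and 1 half-site, which these counts include for both starts. The 4 windows printed here belong to the gene that separated the fractions most, to Cd36, and to the pair of Slc27a genes that differed in pattern, and show the matches in capitals (CANNTG, or AGGTCA read as TGACCT on the other strand), 5′ to 3′ on the strand of the gene. They are chr4:41048137-41048386 (minus strand) for Aqp7, chr5:17835897-17836146 (minus strand) for Cd36, chr3:90389939-90390188 (minus strand) for Slc27a3 and chr2:29802384-29802633 (plus strand) for Slc27a4.
Aqp7: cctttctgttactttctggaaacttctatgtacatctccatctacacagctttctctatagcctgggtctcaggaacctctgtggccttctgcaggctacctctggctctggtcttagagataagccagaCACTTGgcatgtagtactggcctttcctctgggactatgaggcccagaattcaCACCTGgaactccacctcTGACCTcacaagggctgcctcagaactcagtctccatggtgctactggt
Cd36: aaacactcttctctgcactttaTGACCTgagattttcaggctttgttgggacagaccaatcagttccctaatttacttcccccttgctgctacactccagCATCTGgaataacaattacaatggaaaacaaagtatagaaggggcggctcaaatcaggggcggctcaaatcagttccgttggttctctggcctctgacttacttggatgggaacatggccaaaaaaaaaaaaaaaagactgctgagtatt
Slc27a3: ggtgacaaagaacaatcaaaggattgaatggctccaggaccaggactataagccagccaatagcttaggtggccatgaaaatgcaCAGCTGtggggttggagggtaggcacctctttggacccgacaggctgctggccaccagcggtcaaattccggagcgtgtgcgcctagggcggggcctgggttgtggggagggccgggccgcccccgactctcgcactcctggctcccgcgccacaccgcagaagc
Slc27a4: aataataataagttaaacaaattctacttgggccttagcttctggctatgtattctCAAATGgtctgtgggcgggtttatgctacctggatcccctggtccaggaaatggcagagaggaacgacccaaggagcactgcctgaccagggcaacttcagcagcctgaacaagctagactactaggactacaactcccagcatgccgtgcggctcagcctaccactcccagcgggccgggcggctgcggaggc
The Aqp7 window holds 2 E-boxes and 1 half-site, the Cd36 window 1 of each, and the Slc27a3 and Slc27a4 windows 1 E-box each. Slc27a3, which separated the fractions, and Slc27a4, which did not, thus had the same counts of matches.

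Release and uptake of fatty acids opened with Lpl (ENSMUSG00000015568, chr8:68880491-68907448, plus strand, GRCm38). Lpl was at 233, 232, 230 and 408 CPM in the Sca-1+ libraries 7, 13, 15 and 19, and at 32.7, 14.3, 39.1, 27.1 and 11.6 CPM in the Sca-1- libraries 8, 10, 14, 16 and 22. Library 19 stood above the other Sca-1+ libraries, which were nearly equal, and the fractions did not overlap. The means were 276 ± 88.1 (SD, n = 4) and 24.97 ± 11.8 CPM (SD, n = 5), a log2 fold change of 3.47 (SE 0.40). The sign turned on the endothelial scale, where the difference was -0.64 (log2) and the libraries overlapped.

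Cd36 (ENSMUSG00000002944, chr5:17781690-17888801, minus strand), the gene of the fatty acid translocase, was at 1162, 2247, 2304 and 3767 CPM in the Sca-1+ libraries, in the order 7, 13, 15 and 19, and at 4.81, 3.28, 5.90, 42.0 and 18.6 CPM in the Sca-1- libraries, in the order 8, 10, 14, 16 and 22. Both fractions were spread widely, since the highest library was several times the lowest in each, but the lowest Sca-1+ library was still 27.7-fold above the highest Sca-1- library. The means of 2370 ± 1069 (SD, n = 4) and 14.9 ± 16.3 CPM (SD, n = 5) gave a log2 fold change of 7.31 (SE 0.90), which was 8.17 without Sca-1- library 16. Cd36 remained higher in every Sca-1+ library on the endothelial scale, by 3.64 (log2). Within a library, where scaling plays no part, and with no correction for length, Cd36 had a median of 9.46 counts for each Lpl count in Sca-1+ (lowest 4.98) and of 0.229 in Sca-1- libraries (highest 1.59). Cd36 is also known from platelets and macrophages. The megakaryocyte and platelet genes (16 of 16 lower in Sca-1+) were higher in the Sca-1- libraries. The summed macrophage genes were at 156 to 266 CPM in Sca-1+ and at 799 to 2484 CPM in Sca-1- libraries, where Lyz2 made up most of the sum. Of 9 macrophage genes tested, Lyz2 was lower in Sca-1+ after TMM, 2 were higher (Mertk and Mrc1, which sinusoidal endothelium also expresses) and 6 were not called, while 7 were lower and 0 higher on the endothelial scale. Marco and Timd4 were at the floor in all libraries.

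The members of the Slc27a family, which encode acyl-CoA synthetases that promote fatty acid uptake, differed in pattern. Slc27a3 (ENSMUSG00000027932, chr3:90385239-90389938, minus strand) was at 37.8, 32.4, 34.3 and 59.4 CPM in the Sca-1+ libraries. In the Sca-1- libraries it had 0 counts in 8, 10 and 14, and 0.764 and 1.22 CPM in 16 and 22. The means were 41.0 ± 12.5 (SD, n = 4) and 0.397 ± 0.567 CPM (SD, n = 5). The log2 fold change was 6.56 (SE 1.06). With 1 library left out it ran from 6.17 (without Sca-1- library 14) to 7.44 (without Sca-1- library 22). Slc27a4 (ENSMUSG00000059316, chr2:29802634-29817522, plus strand) lay at 13.3, 6.71, 7.46 and 9.18 CPM in the Sca-1+ and at 11.6, 4.33, 1.61, 7.04 and 6.72 CPM in the Sca-1- libraries. The 2 sets overlapped over most of their range, and the log2 fold change was 0.55 (SE 0.50). The pair also differed within libraries, with 2.84 to 6.48 Slc27a3 counts for each Slc27a4 count in Sca-1+ and at most 0.182 in Sca-1- libraries. On the endothelial scale Slc27a3 was higher in Sca-1+ by 3.26 and Slc27a4 lower by a difference of -3.46 (log2), each without overlap. The 3.26 depends on the prior count, which sets the Slc27a3 values of Sca-1- libraries 8, 10 and 14. Libraries 16 and 22 lay at -5.14 and -4.60 on this scale, and the fit scaled to the general endothelial genes gave 2.86.

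Fabp4 (ENSMUSG00000062515, chr3:10204088-10208576, minus strand), the adipocyte and capillary form of the cytosolic carriers, was at 2620, 4048, 4924 and 4204 CPM in the Sca-1+ and at 19.6, 9.43, 31.4, 105 and 68.5 CPM in the Sca-1- libraries. The Sca-1+ libraries varied less than for Cd36 (coefficients of variation 24.4% and 45.1%), while in the Sca-1- fraction 16 and 22 were high and 10 was low, as for Cd36. The means of 3949 ± 965 (SD, n = 4) and 46.8 ± 39.5 CPM (SD, n = 5) gave a log2 fold change of 6.40 (SE 0.73), and of 2.63 (log2, every Sca-1+ library higher) on the endothelial scale. Fabp5 (ENSMUSG00000027533, chr3:10012548-10016607, plus strand), the epidermal form, was at 18.5, 25.6, 24.2 and 40.1 CPM in the Sca-1+ and 2.64, 2.23, 7.81, 4.85 and 7.29 CPM in the Sca-1- libraries. Its log2 fold change after TMM was 2.44 (SE 0.43), but on the endothelial scale it was higher in every Sca-1- library, with a difference of -1.67 (log2). Fabp5 has processed pseudogenes in the mouse genome, so its counts may miss reads that fit more than one place. For each Fabp5 count there were 105 to 203 Fabp4 counts in Sca-1+ and 4.02 to 21.7 in Sca-1- libraries.

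Adipocytes also express Lpl, Cd36, Fabp4, Aqp7 and Pparg. The summed level of 12 adipocyte genes was 92.6 to 220 CPM in Sca-1+ and 58.9 to 267 CPM in Sca-1- libraries, so the fractions overlapped. Of these 12 genes, 6 were tested, and after TMM 5 were higher in Sca-1+ and 1 was lower, beside 23.3% and 21.4% of all genes. On the endothelial scale 1 of the 6 was higher and 2 were lower. Lep, Retn, Cidec and Acvr1c were at the floor in all Sca-1+ libraries, and Plin1, which coats adipocyte lipid droplets, was at 0.793 ± 0.374 CPM (SD, n = 4) there. Lep, Cidec, Plin1, Adig and Adrb3 were at the floor in Sca-1-. Adipoq was the highest adipocyte gene of the Sca-1+ fraction at 76.0 ± 61.6 CPM (SD, n = 4), and Car3 that of the Sca-1- fraction at 106 CPM. Smooth muscle and pericyte genes summed to 738 to 1775 CPM in Sca-1+ and 23.6 to 103 CPM in Sca-1- libraries, with Kcnj8 the highest in Sca-1+ and Mustn1 in Sca-1-. After TMM 9 of 10 were higher, beside 23.3% of all genes, while on the endothelial scale 0 were higher and 2 lower. Within Sca-1+ their sum was lowest in library 13, whereas library 7 was the lowest for 6 of the 10 members. The part of adipocytes, smooth muscle and pericytes in the results was not tested.

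Aqp7 (ENSMUSG00000028427, chr4:41033074-41048139, minus strand) separated the fractions most. It was at 58.7, 83.8, 90.1 and 166 CPM in the Sca-1+ libraries, from 1723 to 4278 counts. In the Sca-1- libraries it had 0 counts in 8, 10 and 14 and 1 count in each of 16 and 22. Every Sca-1- library was thus at the floor, and the Sca-1+ mean of 99.6 ± 46.1 CPM (SD, n = 4) was at least 475-fold higher than the highest floor of a Sca-1- library, 0.209 CPM. On the endothelial scale too every Sca-1+ library was higher, and the Sca-1+ mean lay at least 3.57 (log2) above the highest floor of a Sca-1- library. For libraries with 0 counts, as some had for Aqp7, Slc27a3 and Meox2, the plotted log2 level is set by the prior count.

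**Figure D2:**
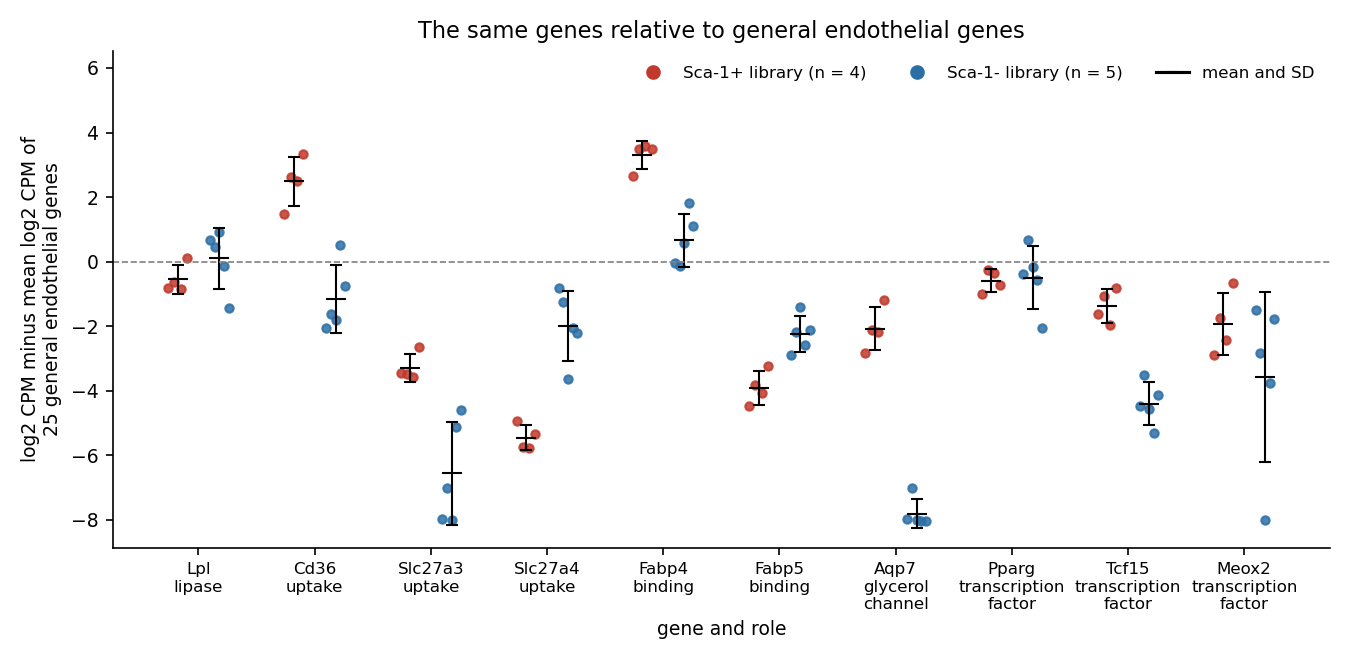
Log2 CPM of each gene minus the mean log2 CPM of 25 general endothelial genes in the same library, for 4 Sca-1+ and 5 Sca-1- libraries; bars are the mean and SD, and 0 is the endothelial mean. Aqp7, Cd36, Slc27a3, Tcf15 and Fabp4 are higher in all Sca-1+ libraries, Meox2, Pparg and Lpl overlap, and Fabp5 and Slc27a4 are lower in all Sca-1+ libraries, although after TMM all but Slc27a4 are higher in Sca-1+.

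Among the transcription factors, Tcf15 (ENSMUSG00000068079, chr2:152143561-152149097, plus strand) was at 133, 174, 105 and 212 CPM in the Sca-1+ and 0.841, 0.838, 0.806, 0.664 and 1.71 CPM in the Sca-1- libraries. The Sca-1- libraries lay close together apart from 22, and none of them reached 2 CPM. The log2 fold change was 7.31 (SE 0.38), and on the endothelial scale the difference was 3.03 (log2), every Sca-1+ library being higher. Meox2 (ENSMUSG00000036144, chr12:37108540-37179534, plus strand) was far more variable. It was at 56.4, 107, 76.8 and 238 CPM in the Sca-1+ libraries, and at 7.09, 1.40, 0, 2.13 and 9.08 CPM in the Sca-1- libraries. Library 19 was the highest of the Sca-1+ fraction, and library 14 had 0 counts, which allows a level of up to 0.127 CPM. The log2 fold change was 4.92 (SE 1.05), and on the endothelial scale the difference of 1.65 (log2) came with overlapping libraries. That difference includes library 14, whose value of -8.01 on the endothelial scale is set by the prior count. The other Sca-1- libraries lay between -3.75 and -1.51, and the fit scaled to the general endothelial genes gave 0.92. Tcf15 had 0.893 to 2.37 counts for each Meox2 count in Sca-1+ libraries, and 0.119 to 0.600 in the 4 Sca-1- libraries that had Meox2 counts.

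Pparg (ENSMUSG00000000440, chr6:115360951-115490399, plus strand) had the steadiest level. It was at 207, 304, 321 and 225 CPM in the Sca-1+ and at 15.4, 16.4, 18.4, 20.02 and 7.61 CPM in the Sca-1- libraries. The coefficients of variation were 21.5% and 30.8%, the lowest of the 10 genes in each fraction. The log2 fold change after TMM was 4.08 (SE 0.31), and on the endothelial scale the difference was -0.085 (log2) with overlapping libraries.

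Levels of different genes were compared as CPM per kilobase of exon. The length counts every base that lies in any annotated exon of the gene. For Fabp4 it was 4489 bases, the whole span of the gene, and for Fabp5 and Lpl it was 3567 and 10478 bases. Lengths of single transcripts were not used, so levels per kilobase, ranks and the order of genes depend on this choice. In Sca-1+ ECs the highest of the 10 genes was Fabp4 at 880 ± 215 with Cd36 next at 660 ± 298 CPM per kilobase (SD, n = 4), which put them at rank 30 and rank 45 of 15865 genes, and the libraries of the pair overlapped. Tcf15 followed without overlap at 159 ± 47.9 CPM per kilobase. After it came Pparg at 89.5 ± 19.3, Meox2 at 50.6 ± 34.5, Aqp7 at 35.2 ± 16.3, Lpl at 26.3 ± 8.41 and Slc27a3 at 15.95 ± 4.87 CPM per kilobase, and from Tcf15 to Slc27a3 each overlapped its neighbour. Fabp5 at 7.60 ± 2.57 and Slc27a4 at 2.08 ± 0.671 CPM per kilobase closed the order without overlap. In Sca-1- libraries Fabp4 was again the first, at 10.4 ± 8.80 CPM per kilobase (SD, n = 5), followed by Pparg at 5.28 ± 1.62, and neighbours overlapped throughout except Tcf15 and Slc27a3. The libraries of a fraction also differed across the list. Sca-1+ library 19 was the highest of its fraction for 7 of the 10 genes, and library 7 was the lowest for 6. Sca-1- library 22 was the highest for 4 (Meox2, Slc27a3, Tcf15 and, at 1 count, Aqp7) and the lowest for Lpl and Pparg. Library 16 was the highest for 3, and library 10 was the lowest for 3, namely Cd36, Fabp4 and Fabp5. Library 19 also had the highest summed level of smooth muscle and pericyte genes of its fraction, 1775 CPM.

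**Figure D3:**
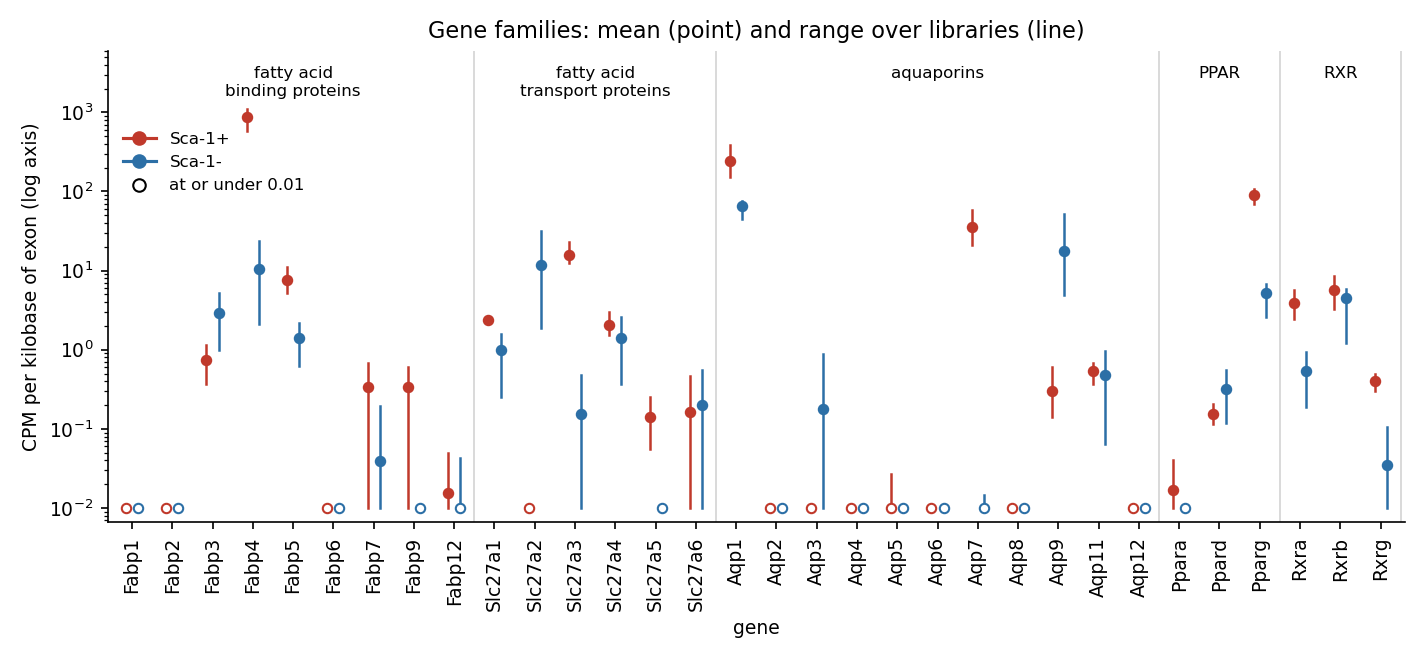
CPM per kilobase of exon, on a log axis, of the fatty acid binding proteins, fatty acid transport proteins, aquaporins, PPARs and RXRs in Sca-1+ and Sca-1- libraries; points are means, lines the range over libraries, and open points lie at or under 0.01. Fabp4, Slc27a3, Aqp7 and Pparg are the members that rise far above their Sca-1- level after TMM (Pparg not so on the endothelial scale), while Slc27a2 and Aqp9 are seen mainly in Sca-1- libraries.

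The relatives of these genes were read in the same fit, with edgeR's quasi-likelihood test and Benjamini-Hochberg adjustment over all genes tested. Counts of each list stand beside 23.3% higher and 21.4% lower of all genes tested after TMM, and beside 1.6% higher and 87.8% lower on the endothelial scale, on which most genes are lower. Of 13 other genes of fatty acid binding and transport tested, 3 were higher and 3 lower in Sca-1+ ECs (23.1% each), with a median log2 fold change of -0.43 against 0.074 over all genes tested. On the endothelial scale all 13 were lower, as were 87.8% of all genes. Slc27a1 rose by 1.28 on the log2 scale (SE 0.44, edgeR adjusted p = 0.0346) after TMM and was lower on the endothelial scale. The opposite pattern to Slc27a3 was seen in Slc27a2, which had 0 counts in all 4 Sca-1+ libraries and 44.0 ± 44.7 CPM (SD, n = 5) in Sca-1-, a level at least 379-fold lower in Sca-1+ (edgeR adjusted p = 0.000644). Slc27a5 and Slc27a6 stayed under 1.5 CPM in every library. Fabp3, the heart form, was lower in Sca-1+ (log2 fold change -1.94, SE 0.62, edgeR adjusted p = 0.0274), although at 0.618 and 2.39 CPM it was near the limit of detection and the libraries overlapped. Fabp1, Fabp2 and Fabp6 had 0 counts throughout, and Fabp7, Fabp9 and Fabp12 stayed under 1 CPM. Dbi, which carries acyl-CoA, and Acsl3, an acyl-CoA synthetase, were higher in Sca-1+ after TMM (log2 fold changes 1.27 and 1.17, edgeR adjusted p = 0.00222 and 0.00855) and lower on the endothelial scale. Acsl6 was lower on both scales (log2 fold change -2.47 after TMM, edgeR adjusted p = 0.0104).

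Beside Lpl, 10 of 19 genes of lipolysis and lipoprotein handling were higher in Sca-1+ and 3 were lower (52.6% and 15.8%, beside 23.3% and 21.4% of all genes), with a median log2 fold change of 0.85. Gpihbp1, the anchor of LPL, was at 917 ± 136 CPM (SD, n = 4) in Sca-1+ and at 12.7 ± 8.55 CPM (SD, n = 5) in Sca-1- libraries. Its log2 fold change was 6.17 (SE 0.66, edgeR adjusted p = 8.24e-05), and it was the gene of this list that was still called higher on the endothelial scale, by 2.19 (log2, edgeR adjusted p = 0.000596). Lipg, the endothelial lipase, rose by 5.77 on the log2 scale (SE 1.21, edgeR adjusted p = 0.00324) after TMM, and its value on the endothelial scale was 2.06 (edgeR adjusted p = 0.0914). Angptl4, an inhibitor of LPL, had a log2 fold change of 3.96 (SE 0.62, edgeR adjusted p = 0.000642) after TMM and -0.072 on the endothelial scale. Lower in Sca-1+ on both scales were Lipc, the hepatic lipase (log2 fold change -3.98 after TMM, edgeR adjusted p = 0.00879), and the lipoprotein receptors Lrp8 (-3.84, edgeR adjusted p = 0.00293) and Vldlr (-2.02, edgeR adjusted p = 0.0264).

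Of the aquaporin family, Aqp1 and Aqp7 were the highest per kilobase in Sca-1+ ECs. Aqp1, a water channel, had a mean of 631 ± 263 CPM in 4 Sca-1+ and of 171 ± 31.0 CPM (SD) in 5 Sca-1- libraries, a log2 fold change of 1.89 after TMM (edgeR adjusted p = 0.000639) that turned to -2.44 on the endothelial scale. Aqp9, which like Aqp7 conducts glycerol, showed the reverse of Aqp7, at 1.25 ± 0.890 CPM (SD, n = 4) in Sca-1+ and 73.3 ± 81.4 CPM (SD, n = 5) in Sca-1- libraries (log2 fold change -5.87, SE 0.93, edgeR adjusted p = 0.000686). Aqp3, another glycerol channel, had 0 counts in Sca-1+ and at most 1.61 CPM in Sca-1- libraries. Aqp11 was not called (5.10 and 4.56 CPM), Aqp5 was at the floor, and Aqp2, Aqp4, Aqp6, Aqp8 and Aqp12 had 0 counts in all 9 libraries. Of 12 genes of the aquaporin and glycerol list tested, 2 were higher and 3 lower (16.7% and 25%). Of the 9 genes of glycerol use among them, 2 were lower, 1 was higher and 6 were not called. Gk, which encodes glycerol kinase, lay between 4.12 and 5.46 CPM in Sca-1+ and between 25.5 and 117 CPM in Sca-1- libraries (log2 fold change -3.68, SE 0.46, edgeR adjusted p = 0.00017), and Gpd2, the mitochondrial glycerol-3-phosphate dehydrogenase, had a log2 fold change of -1.79 (edgeR adjusted p = 0.000715). Both were lower on the endothelial scale too. Gpat4 was higher after TMM (0.67, edgeR adjusted p = 0.0209), with overlapping libraries, and lower on the endothelial scale.

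Pparg was the highest PPAR gene per kilobase in both fractions. Ppara was at 0.155 CPM or less in every library, and Ppard was at 1.17 and 2.38 CPM and was not called (log2 fold change -1.02, SE 0.52, edgeR adjusted p = 0.136). Among the partners, Rxra had a log2 fold change of 2.88 (SE 0.53, edgeR adjusted p = 0.00158) and Rxrg, at under 1.2 CPM in each library, one of 3.50 (SE 1.02, edgeR adjusted p = 0.0174) after TMM, while Rxrb was not called (0.30, edgeR adjusted p = 0.613). On the endothelial scale Rxra was lower and Rxrg at -0.47 was not called. Of the 17 receptors and cofactors tested, 5 were higher and 5 lower (29.4% each), Cebpd being the other one with a large rise after TMM (3.09, edgeR adjusted p = 0.000277, lower on the endothelial scale). The coactivators and corepressors called were lower in Sca-1+, with Ncoa1 at -4.10 (edgeR adjusted p = 0.000713) and Nrip1 at -2.86 (edgeR adjusted p = 0.00343), and so was Cebpa, a partner of PPARγ in fat cells (-2.80, edgeR adjusted p = 0.00238). Of 16 known PPAR target genes other than the members, 6 were higher and 2 lower (37.5% and 12.5%). Hilpda and Plin2, which act at lipid droplets, rose by 2.46 and 2.13 on the log2 scale (edgeR adjusted p = 0.00047 and 0.000228) after TMM and were lower on the endothelial scale. Cat, the catalase gene (-2.87, edgeR adjusted p = 0.000737), and Acadm (-0.96, edgeR adjusted p = 0.00271) were lower on both.

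**Figure D4:**
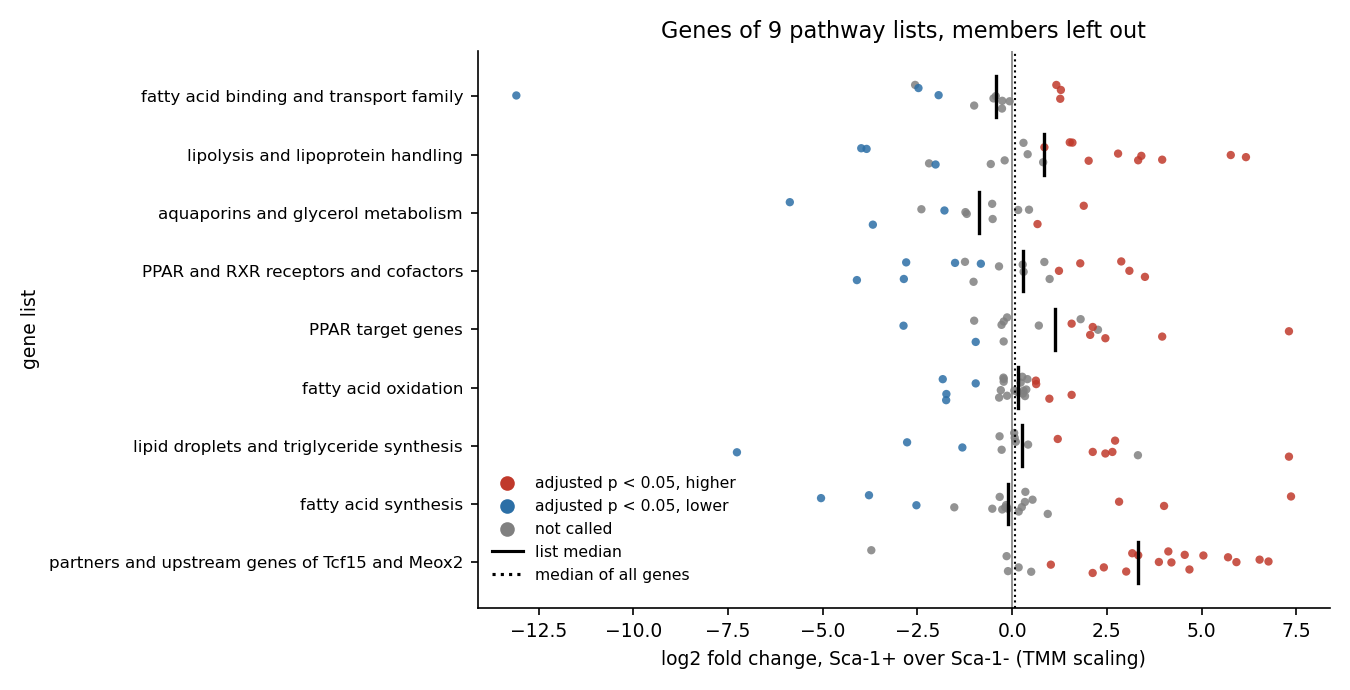
Log2 fold changes of Sca-1+ over Sca-1- libraries after TMM for the tested genes of 9 lists without the 10 members; red and blue points passed edgeR's adjusted p of 0.05, black bars are list medians, and the dotted line is the median of all genes, 0.074. Most lists hold genes called in both directions. The list of Tcf15 and Meox2 partners and upstream genes, which includes VEGF, apelin and Notch genes, has 16 higher and 0 lower. On the endothelial scale 122 of the 146 distinct genes are lower and 7 higher, beside 87.8% and 1.6% of all genes.

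Of 23 genes of fatty acid oxidation, 4 were higher and 4 lower (17.4% each, beside 23.3% and 21.4% of all genes), with a median of 0.15 on the log2 scale. Hadhb and Acadvl were higher after TMM (0.63 and 0.62, edgeR adjusted p = 0.0192 and 0.0185), and Cpt2 (-1.83, edgeR adjusted p = 0.000475), Etfb (-1.74, edgeR adjusted p = 0.000187) and Acads (-1.74, edgeR adjusted p = 0.000667), of mitochondria, were lower. All 23 were lower on the endothelial scale, as were 87.8% of all genes. Of 16 genes of lipid droplets and triglyceride synthesis, 6 were higher and 3 lower (37.5% and 18.8%). Lpin2, a phosphatidate phosphatase, was at 6.74 ± 0.580 CPM (SD, n = 4) in Sca-1+ and between 298 and 2282 CPM in Sca-1- libraries (log2 fold change -7.26, edgeR adjusted p = 8.87e-05). Agpat2 was lower too (-1.32, edgeR adjusted p = 0.00321), and Plin3 was higher after TMM (1.202, edgeR adjusted p = 0.000723) but lower on the endothelial scale. Of 19 genes of fatty acid synthesis, 3 were higher and 3 lower (15.8% each). Thrsp, a regulator of lipogenesis, was at 116 ± 62.5 CPM (SD, n = 4) in Sca-1+ and at 0.663 ± 0.773 CPM (SD, n = 5) in Sca-1- libraries. Its log2 fold change was 7.36 (SE 0.98, edgeR adjusted p = 0.000254), and 3.48 (edgeR adjusted p = 0.00371) on the endothelial scale. Fads2, a desaturase, was lower (-2.53, edgeR adjusted p = 0.00024). The elongases went different ways, Elovl5 being higher (2.82, edgeR adjusted p = 0.000312) and Elovl7 and Elovl6 lower (-5.05 and -3.78, edgeR adjusted p = 0.000109 and 0.00138), although Elovl5 too was lower on the endothelial scale.

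Around Tcf15 and Meox2, 16 of 21 listed partners and upstream genes were higher in Sca-1+ and 0 lower, with a median of 3.33 on the log2 scale, and on the endothelial scale 4 were higher and 10 lower. TCF15 binds DNA with E proteins. Of these, Tcf4 was higher after TMM (3.17, edgeR adjusted p = 3.65e-05) and Tcf12 by 1.02 (edgeR adjusted p = 0.0393), and Tcf3 was not called (138 and 123 CPM, edgeR adjusted p = 0.656). Meox1, the relative of Meox2, averaged 57.0 and 10.6 CPM in the fractions and rose by 2.42 on the log2 scale (edgeR adjusted p = 0.00161) after TMM, but it and Tcf4 and Tcf12 were lower on the endothelial scale. Nrp1 and Flt1, receptors of VEGF-B, had log2 fold changes of 6.76 and 5.92, and the apelin receptor gene Aplnr one of 6.53 (edgeR adjusted p = 8.57e-05, 3.32e-06 and 0.00201). With the Notch ligand gene Dll4 they were the 4 called higher on the endothelial scale as well.

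The share of the 146 other pathway genes called is set beside that of all genes as a description, since the lists were chosen with earlier results of these data known. After TMM 50 of them, 34.2%, were higher and 25, 17.1%, lower, beside 23.3% and 21.4% of all genes tested, and their median log2 fold change was 0.27. Of the 50 higher, 16 belong to the list of Tcf15 and Meox2 partners and upstream genes, which had 0 lower. Slc27a2 and Plin1, each at the floor in one fraction, stayed on the same side of their list medians when set at their bound. The list medians could therefore not change. On the endothelial scale 7 were higher, namely Gpihbp1, Thrsp, Plin1 (at the floor in Sca-1-), Nrp1, Flt1, Aplnr and Dll4, and 122 were lower, where the median of all genes moved to -4.18.

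The genes whose log2 CPM over the 9 libraries was most like each of the separating members are given with Pearson's r, as a description, since these points share their libraries and every gene that separates the fractions gives a high r. For Aqp7 they were Ccdc85a, Lrrc3b and Dusp26 (r = 0.999, 0.998 and 0.997), which had 0 counts in every Sca-1- library. For Tcf15 the first was Aqp7 (r = 0.995), followed by Mcoln1 and Dll4 (r = 0.994 each), and Meox2 was not among the 3. For Meox2 they were Pdzd2, Dnm3 and Fosl1 (r = 0.992, 0.988 and 0.986). For Cd36 they were Cyyr1, 2610305D13Rik and Tnfrsf1a, and for Fabp4 Tnfrsf1a, Piezo1 and Hyal2 (r = 0.996 for each of these 6). With the fraction means taken out, r over the 3 genes was 0.175 to 0.863 for Aqp7, 0.526 to 0.907 for Tcf15, 0.959 to 0.985 for Meox2, 0.953 to 0.973 for Cd36 and 0.943 to 0.956 for Fabp4. The genes were picked by r over the same libraries, so these values are in part raised by that choice. For Meox2 they include Sca-1- library 14, with 0 counts and a level set by the prior count. For Aqp7 every Sca-1- library was at the floor. Over 0.95 lay 609 genes for Aqp7, 628 for Cd36 and 728 for Fabp4 but 114 for Meox2, of 9866 genes compared.

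**Figure D5:**
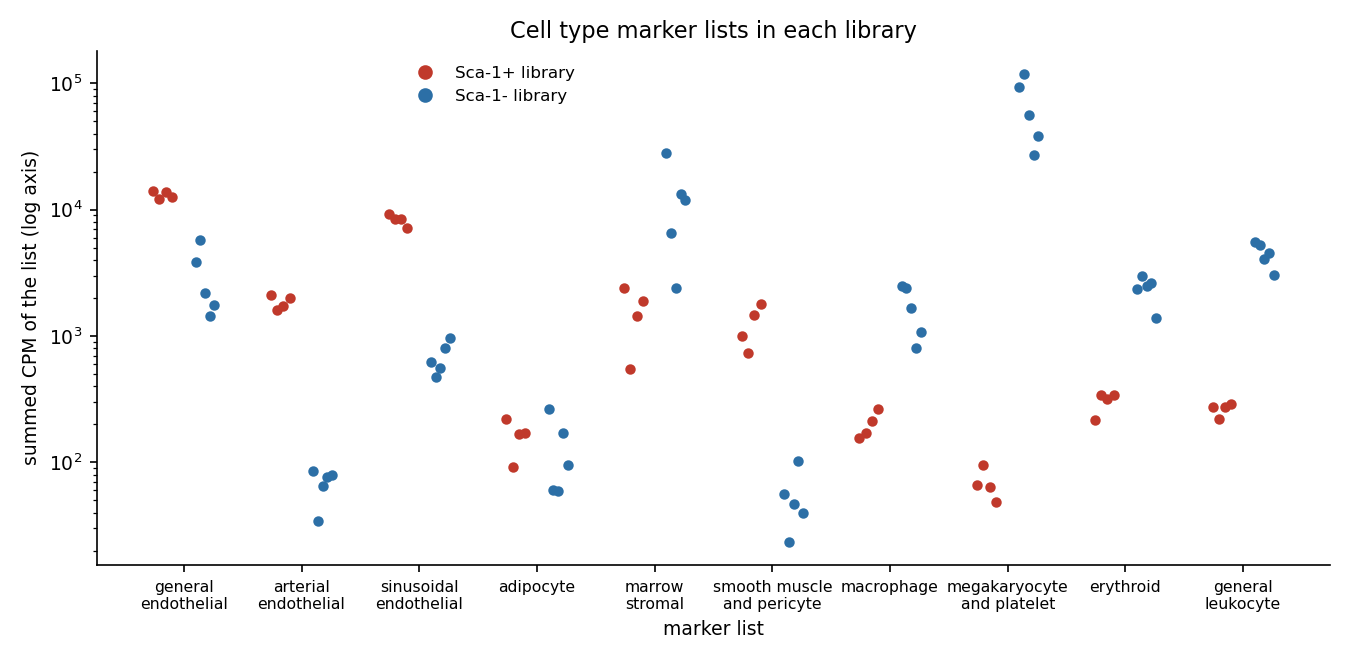
Summed CPM of 10 cell type marker lists, on a log axis, in each of 4 Sca-1+ and 5 Sca-1- libraries. General, arterial and sinusoidal endothelial genes and pericyte genes are higher in all Sca-1+ libraries, the sums of megakaryocyte, stromal, macrophage, erythroid and leukocyte genes are higher in all Sca-1- libraries (stromal mainly Col1a1 and macrophage mainly Lyz2), and the adipocyte genes overlap.

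Marker lists set beside these results differed in both directions, and their part in the results was not tested. Arterial endothelial genes (Fbln5 the highest, with Gkn3 and Sema3g at the floor in Sca-1-) summed to 1593 to 2092 CPM and sinusoidal endothelial genes (Plvap the highest in Sca-1+ and Ehd3 in Sca-1-) to 7194 to 9314 CPM in Sca-1+ libraries, against 34.3 to 85.4 and 476 to 961 CPM in Sca-1-. Marrow stromal genes summed to 553 to 2381 CPM in Sca-1+, led by Cxcl12, and to 2386 to 28028 CPM in Sca-1-, where Col1a1 made up most of the sum. Of 12 stromal genes, Col1a1 was called lower in Sca-1+ and 6 were called higher, with a median log2 fold change of 2.12 after TMM, while on the endothelial scale 8 were lower and 0 higher. General leukocyte genes (Lcp1 and Arhgdib the highest), at 221 to 289 and 3050 to 5535 CPM, and erythroid genes (Car2 the highest), at 217 to 342 and 1378 to 2975 CPM, were higher in the Sca-1- libraries. Of the genes named from the lists, Slc27a2, Fabp3, Gk, Gpd2, Acsl6, Cebpd, Cebpa, Ncoa1, Elovl6, Acadvl, Agpat2, Dll4, Acvr1c, Adrb3, Lcp1 and Arhgdib share exon bases with a gene on the other strand, and Etfb, Acsl3, Fabp9 and Nrp1 with one on the same strand, so their counts could include reads of that gene. None of the 10 members shares exon bases with another annotated gene.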

How the data were processed

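The authors deposited whole-number read counts per gene, not normalized. The submitters' processing notes name STAR, featureCounts and mm10; versions, annotation and strand use are not given in the sources used here. RNA was taken with a miRNeasy micro kit and libraries were made with SMART-Seq v4 from poly(A) RNA.

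Tests were run with edgeR 4.0.16 under R 4.3.3 (filterByExpr at its defaults, minimum count 10 and minimum total 15; TMM) by the quasi-likelihood F-test, two-sided, not robust, over all 9 libraries, with Benjamini-Hochberg adjustment at 0.05 over 15937 genes. Standard errors were taken from the F statistic, and a prior count of 2 entered log2 CPM. Within a fraction, libraries differed by a chi-square per degree of freedom of 28.5 or more, so none was a copy. DESeq2 1.42.0 and limma voom 3.58.1 were alternatives. The edgeR step was first tested on simulated data. Coordinates, exon lengths and overlaps came from GENCODE M21 (GRCm38, the build that mm10 names), which held 45143 of the 46078 identifiers.

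The members and gene lists were chosen with earlier results of these data known, and the 9 pathway and 10 marker lists come from general knowledge. Of 322 listed genes 321 were found. Named from each pathway list were up to 3 called genes in each direction with the largest change among non-overlapping genes averaging a log2 CPM of 3 or more, and all Fabp, Slc27a, Aqp, Ppar and Rxr genes. From each marker list the highest gene and those at the floor were named, and for 5 separating members the 3 genes most like them by Pearson's r. Acsl6, Gpat4, Plin1, Tcf3, Tcf4, Tcf12, Meox1, Mertk, Ly6a and Cdh5 were named outside this rule, after their values were seen. So were Myct1 and Tspan18. A gene that the rule names in the fatty acid oxidation list is not reported here.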

Additional observations from a re-analysis of the deposited data

Results flagged for a closer look

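In 4 of the 40 sets of libraries examined (10 members and 10 marker lists in each fraction), 1 library stood far from the others of its fraction, and chance gives about 1 in 20. Tcf15 was at a log2 CPM of 0.84 in Sca-1- library 22 and at -0.42 to -0.12 in the other Sca-1- libraries. Pparg was at a log2 CPM of 2.94 in the same library and at 3.96 to 4.33 in the others, so the same library was high for one gene and low for the other. Lpl was at a log2 CPM of 8.67 in Sca-1+ library 19 and at 7.85 to 7.87 in the other Sca-1+ libraries. The summed erythroid genes had a log2 CPM of 7.76 in Sca-1+ library 7 and of 8.31 to 8.42 in the other Sca-1+ libraries.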

How the results depend on the processing

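Across 21 alternatives, Aqp7, Tcf15, Cd36, Fabp4 and Slc27a3 kept their direction and their call, and 7 to 9 of the 10 members were called. The 7, under scaling to general endothelial genes, were 5 higher and 2 lower. Since the members were chosen with this contrast known, these counts are descriptions only. The scaling to general endothelial genes moved the median of all genes to -4.18 on the log2 scale and called 14249 genes (255 higher, 13994 lower) and 129 pathway genes (7 higher, 122 lower). Under it the log2 fold change turned to -1.65 for Fabp5, -0.76 for Lpl, -0.25 for Pparg and -3.66 for Slc27a4, and Meox2, at 0.92, was no longer called. These values stood above the moved median of all genes. With library size alone that median moved to 0.43. Leaving out each library in turn gave 5957 to 6969 genes called, 67 to 74 pathway genes and 9 members. Both Sca-1- library 10 and Sca-1+ library 19 left out, an alternative chosen after seeing the data, also left 9 members called. A fit with a replicate block of 3 pairs by consecutive end numbers used 6 libraries and called 4340 genes and 56 pathway genes. The same libraries without the block gave 5360 genes and 67 pathway genes. With the block Meox2, at 5.50, was not called. The labels do not state a pairing, although 13 shares a prefix with 14, and 15 with 16. The deviations of the pairs correlated at 0.147 (7 and 8), 0.148 (13 and 14) and 0.042 (15 and 16). The first 2 were the highest of all 20 cross-fraction pairs, and the third was under 0.1. These values do not settle whether the libraries of a pair share a source. The main fit left the pairing out, so a shared source is not accounted for in it. Depth limits statements on genes at the floor, such as Aqp7 in Sca-1- libraries.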
